A study of Mus musculus with 7 samples.

Results

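The interstitial matrix and fibroblast genes of the mouse kidney were followed as 41 genes picked by their symbols: collagens, glycoproteins, elastic fibre proteins, proteoglycans, collagen cross-linking enzymes, matrix proteases and their inhibitors, contractile genes, platelet-derived growth factor receptors and members of the TGF-beta pathway. All 41 were among the 17537 genes of the expression table, and all 41 passed the filter on low values that left 13976 genes for testing. RNA sequencing (polyA RNA of whole renal tissue) covered 7 libraries. The control group (C, replicates 2, 8 and 9) held nondiabetic C57BL/6 mice, labelled like the diabetic ones with an age of 8 to 10 weeks. Both other groups shared hyperglycemia induced by streptozotocin (STZ), a toxin of insulin-producing cells. STZ was given intraperitoneally at 60 mg/kg on 5 days to C57BL/6 mice aged 8 to 10 weeks. All mice were male per the labels, whereas the study's methods name C57BL/6 mice of both sexes. The DM-22 group (replicates 1 and 2) stayed hyperglycemic for 22 weeks. The DM+SGLT2i group (replicates 1 and 2) received dapagliflozin, an inhibitor of the renal glucose transporter SGLT2, with the drinking water (25 mg/kg) over the last 6 weeks, after 16 weeks of hyperglycemia. The comparison of the 3 groups asked which expression changes of the diabetic kidney remained once blood glucose was lowered. The labels give each library its own number without stating that each came from a separate mouse, so that p-values measure the spread between these libraries.

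In the kidney, interstitial fibroblasts and pericytes, marked by the receptors Pdgfra and Pdgfrb, make most of the fibrillar collagen between the tubules. TGF-beta drives them toward a myofibroblast state with contractile proteins such as alpha smooth muscle actin (Acta2), and they deposit collagens, fibronectin and proteoglycans, which lysyl oxidases cross-link and matrix metalloproteinases degrade. Accumulation of this matrix is the hallmark of renal fibrosis. Acta2 and Tagln are also abundant in the smooth muscle of arteries, and Timp3 is expressed by tubular cells, so that the 41 genes do not mark a single cell type. In bulk tissue, fewer cells of a type and less RNA per cell cannot be told apart.

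Each library held between 46456125 and 56541594 reads on listed genes, and 1 read was worth between 0.0180 and 0.0231 CPM (reads of a gene relative to the normalized size of its library), so that even Vcan, the member with the fewest reads, rested on 9 to 150 reads. C replicate 2 stood apart from the other controls. Its 8 tubular injury markers (Havcr1, Lcn2, Spp1, Vcam1, Sox9, Clu, Krt18 and Krt20) summed to 6299.8 CPM as compared to 943 in C replicate 8 and 773 in C replicate 9, and its 8 proximal tubule markers to 10022 CPM as compared to 21498 and 19250.1. The DM-22 libraries held 2118 and 1849 CPM of the injury markers, and the DM+SGLT2i libraries 2905 and 3131. Cdkn1a, the gene of the cell cycle inhibitor p21, which the study followed, stood at 72.7 CPM in C replicate 2, at 4.63 and 5.36 in C replicates 8 and 9, at 52.6 and 123 in DM-22 and at 78.6 and 77.3 in DM+SGLT2i. On these measures the library labelled C replicate 2 was unlike the other 2 controls and Cdkn1a lay in the range of the diabetic libraries. Whether it came from an undamaged nondiabetic kidney could not be settled from the labels, so every C mean over 3 libraries carries this doubt. DM-22 replicate 1 held 400.5 CPM of inner medulla and urothelium markers as compared to 9.46 in DM-22 replicate 2, and DM+SGLT2i replicate 1 held 1672 CPM of fat markers as compared to between 44.5 and 90.6 in the other 6 libraries. The part of these differences in the results was not tested. Each comparison is therefore given with all libraries and without C replicate 2.

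Most members were high in DM+SGLT2i kidneys and in C replicate 2, and low in DM-22 kidneys or in C replicate 8. Of the 41 genes, 19 had their highest value in C replicate 2 (16.4% of all genes tested did) and 17 in DM+SGLT2i replicate 1 (10.8% of all genes), while Fbln5 was highest in C replicate 9 (15.2% of all genes). The lowest value lay in DM-22 replicate 2 for 16 members (18.5% of all genes) in DM-22 replicate 1 for 12 (16.3% of all genes) and in C replicate 8 for 9 (10.5% of all genes). Without Timp3, which exceeded the sum of all other members in C replicates 8 and 9 and in DM-22 replicate 2, the members summed to 3857 CPM in C replicate 2, 1322 in C replicate 8, 1692 in C replicate 9, 1823 and 1589 in the DM-22 libraries, and 3222 and 2775 in the DM+SGLT2i libraries. On this summed level both DM+SGLT2i libraries lay above both DM-22 libraries, while C replicates 8 and 9 lay close to DM-22.

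**Figure D1:**
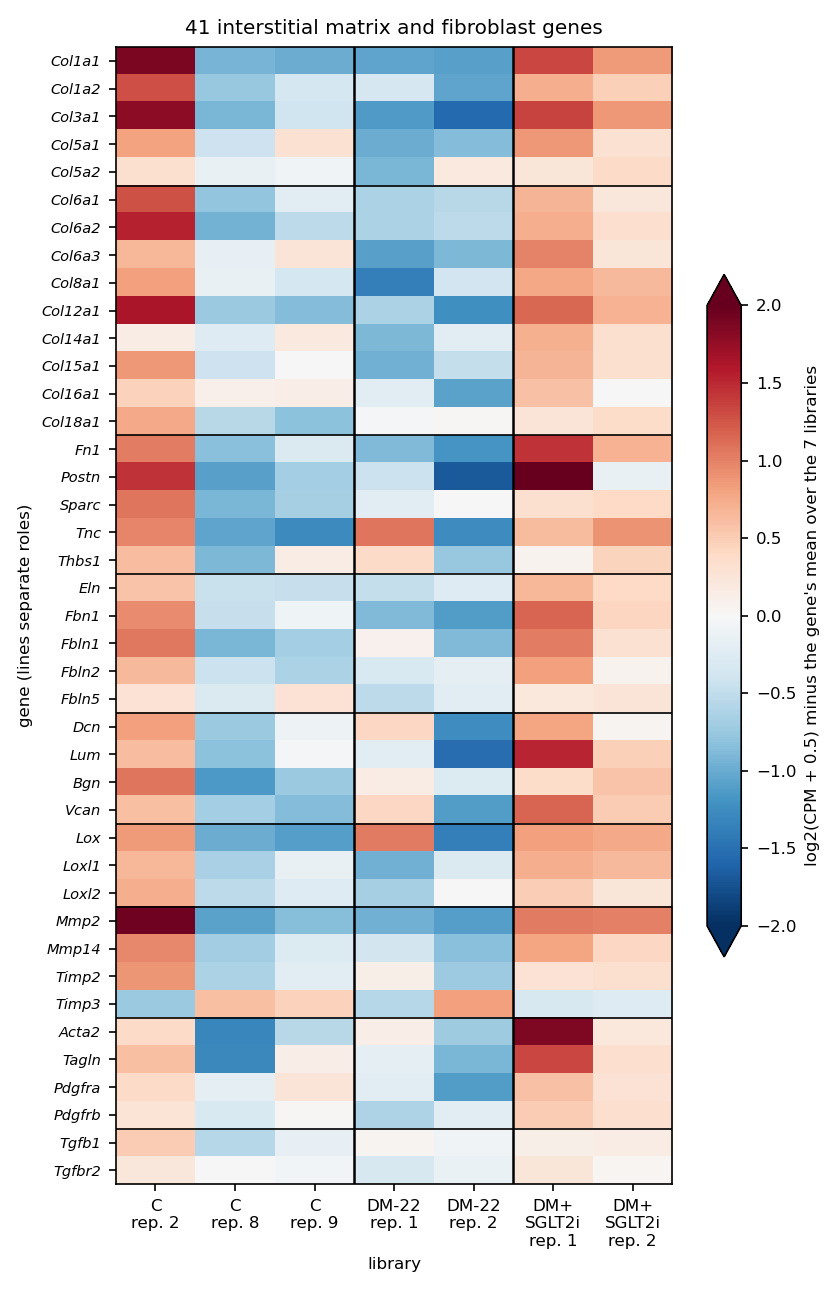
Expression of the 41 genes in the 7 libraries. Each row is a gene, each column a library, and the color gives log2(CPM + 0.5) minus the gene's mean over the 7 libraries (red above, blue below); horizontal lines separate the roles in the order of the text and vertical lines the groups. C replicate 2 and both DM+SGLT2i libraries are mostly red, both DM-22 libraries mostly blue, whereas Timp3 is blue in C replicate 2, DM-22 replicate 1 and both DM+SGLT2i libraries. Low levels were not particular to DM-22: without Timp3 the members summed to 1322 and 1692 CPM in C replicates 8 and 9 and to 1823 and 1589 in DM-22.

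As compared to DM-22, 40 of 41 members were higher in DM+SGLT2i (50.6% of all genes tested were), and both DM+SGLT2i libraries exceeded both DM-22 libraries for 36 members (21.4% of all genes), while the reverse held for 0 members (20.0% of all genes). The median log2 fold change of the members was 1.07, beside 0.0045 over all genes. With limma fitted to all 7 libraries, 14 members were higher at an unadjusted p under 0.05 (2.25% of all genes) and 0 lower (1.66%), and 0 passed a Benjamini-Hochberg adjusted p of 0.05 (0.00% of all genes; the smallest adjusted p of a member was 0.881). Without C replicate 2, the fold changes between the diabetic groups were the same with mostly smaller standard errors, and 29 members were higher at an unadjusted p under 0.05 (6.86% of all genes) and 0 lower (3.89% of all genes), again with 0 past the adjusted threshold. Without DM+SGLT2i replicate 1 the median was 0.87 and 1 member was left at an unadjusted p under 0.05 (0.315% of all genes), while 40 of 41 members were still higher (52.4% of all genes). With both C replicate 2 and DM-22 replicate 1 left out, an alternative chosen after seeing the data, 15 members passed the adjusted threshold (3.13% of all genes), among them Col1a1, Col3a1, Col12a1, Fn1, Fbn1 and Mmp2, but DM-22 was then a lone library assumed to vary like the other groups.

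As compared to C, 33 of 41 members were lower in DM-22 (50.7% of all genes were higher), with a median log2 fold change of -0.47 (0.0045 over all genes). At an unadjusted p under 0.05, 5 members were lower (3.28% of all genes) and 0 higher (1.19% of all genes). Both DM-22 libraries lay below all 3 controls for 11 members (9.29% of all genes) and above all 3 for 0 (10.8% of all genes). The 11 genes were Col1a1, Col3a1, Col5a1, Col6a3, Col8a1, Col15a1, Col16a1, Fn1, Fbn1, Pdgfra and Tgfbr2. Against C replicates 8 and 9 alone, both DM-22 libraries lay below for the same 11 (26.8% of the members, 29.5% of all genes). They lay above for 5 (12.2% of the members, 29.9% of all genes). Without C replicate 2 the members thus showed no excess of lower values over all genes by this measure. Without C replicate 2 the median was -0.12, 17 members were higher and 24 lower, 3 were higher (10.4% of all genes) and 4 lower (14.8% of all genes) at an unadjusted p under 0.05, and 0 passed the adjusted threshold in either fit (0.00% of all genes with all libraries and 0.0143% without C replicate 2). The median difference between DM-22 and C thus rested mainly on 1 control library. The number lower at an unadjusted p under 0.05 was 12 without C replicate 8 (1.75% of all genes) and 3 without DM-22 replicate 1 (3.58% of all genes).

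Of the members, 40 were higher in DM+SGLT2i than in C (47.2% of all genes were), but the DM+SGLT2i libraries exceeded all 3 controls only for Col14a1 and Pdgfrb (5.67% of all genes), and 0 members reached an unadjusted p of 0.05 with all libraries (0.665% of all genes higher, 0.415% lower). The median log2 fold change was 0.54 (-0.013 over all genes). Against C replicates 8 and 9 alone, both DM+SGLT2i libraries were higher for 36 members (28.2% of all genes), the median was 1.0002, and 28 members were higher at an unadjusted p under 0.05 and 0 lower (8.73% and 9.14% of all genes). In that fit Col1a1 and Mmp2 passed the adjusted threshold (0.122% of all genes). The 3 comparisons share libraries with each other and are therefore not independent.

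With the 4 diabetic libraries as 1 group against the 3 controls, the members did not share a direction: 21 were higher and 20 lower (50.8% of all genes were higher), with a median log2 fold change of 0.0025 and 0 at an unadjusted p under 0.05 (0.658% of all genes higher, 1.38% lower). After leaving out C replicate 2, 34 were higher (50.1% of all genes), the median was 0.48, and 13 were higher at an unadjusted p under 0.05 (10.4% of all genes). Here too 0 passed the adjusted threshold (0.200% of all genes did).

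**Figure D2:**
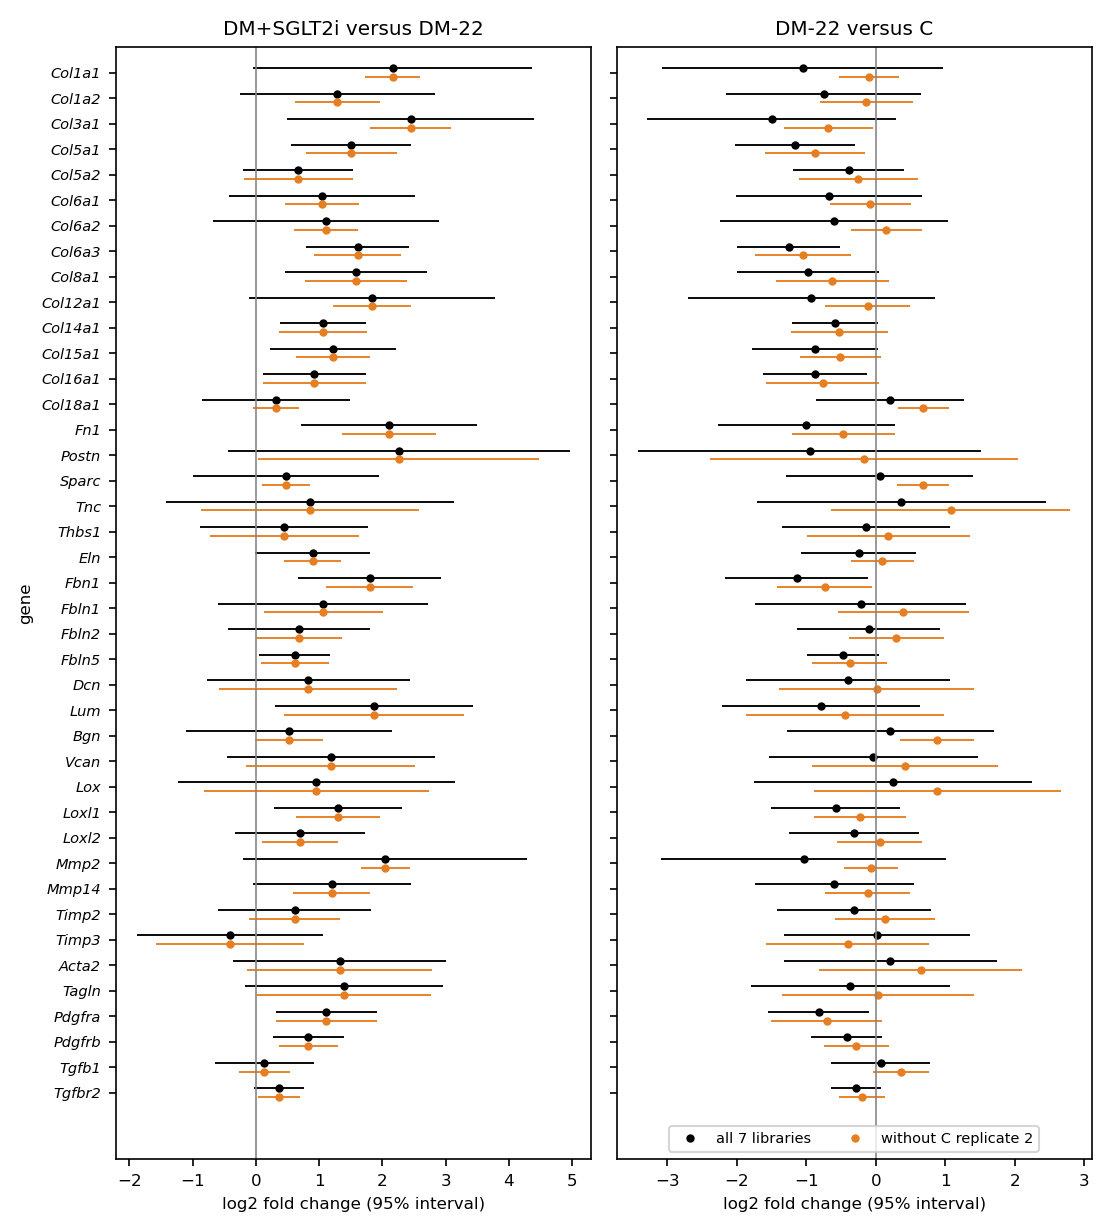
Log2 fold changes of the 41 genes in DM+SGLT2i versus DM-22 (left) and in DM-22 versus C (right). Points are limma estimates and lines their 95% intervals, in black with all 7 libraries and in orange without C replicate 2. On the left 40 of 41 points lie above 0 in both fits and most intervals narrow without C replicate 2, and on the right the median moves from -0.47 to -0.12.

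The fibrillar collagens form the fibres of the interstitium: Col1a1 and Col1a2 encode the chains of type I collagen, Col3a1 type III, and Col5a1 and Col5a2 chains of type V, which nucleates these fibres. Col1a1 (chr11:94936224-94953042, GRCm38, plus strand) stood at 168, 23.3 and 22.4 CPM in C replicates 2, 8 and 9, at 21.5 and 20.97 in DM-22, and at 114 and 81.9 in DM+SGLT2i. Col3a1 (chr1:45311538-45349706, plus strand) stood at 156, 23.6 and 33.9 CPM in C, 20.2 and 15.0 in DM-22, and 115 and 82.3 in DM+SGLT2i. For both genes the DM+SGLT2i libraries were well separated from DM-22 and from C replicates 8 and 9, and lay below C replicate 2. The group means of Col1a1 were 71.3 ± 83.9 CPM in C (SD, n = 3), 21.2 ± 0.365 in DM-22 (SD, n = 2) and 98.2 ± 22.9 in DM+SGLT2i (SD, n = 2). Between DM+SGLT2i and DM-22 the log2 fold change of Col3a1 was 2.45 ± 0.82 (SE; limma, unadjusted p = 0.0217, adjusted p = 0.881), the largest of the 41 members, and that of Col1a1 was 2.16 ± 0.92 (unadjusted p = 0.0540, adjusted p = 0.881). Col1a2 went from 69.2 and 42.0 CPM in DM-22 to 145 and 122 in DM+SGLT2i, with C replicates 8 and 9 at 51.5 and 68.8. Against C replicates 8 and 9, Col1a1 rose in DM+SGLT2i by a log2 fold change of 2.06 ± 0.18 (SE; limma, adjusted p = 0.0490), whereas with all 3 controls the value was 1.11 ± 0.84 (adjusted p = 0.9997).

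Col5a1 separated the diabetic groups with little spread: it stood at 6.30 and 6.87 CPM in DM-22, at 24.0 and 16.2 in DM+SGLT2i and at 23.0, 9.66 and 16.1 in C. Its log2 fold change between DM+SGLT2i and DM-22 was 1.51 ± 0.40 (SE; unadjusted p = 0.00741, adjusted p = 0.881), and between DM-22 and C -1.16 ± 0.36 (unadjusted p = 0.0162, adjusted p = 0.804) with all libraries and -0.87 ± 0.29 (unadjusted p = 0.0254, adjusted p = 0.150) without C replicate 2. Col5a2 was the member of this class that differed least, with a log2 fold change of 0.67 ± 0.36 between DM+SGLT2i and DM-22, and DM-22 replicate 1 (8.17 CPM) lay well below DM-22 replicate 2 (18.2 CPM). All 5 fibrillar collagens were lower in DM-22 than in C (50.7% of all genes were higher), with 1 at an unadjusted p under 0.05 (3.28% of all genes lower). Their median log2 fold change there was -1.05 with all libraries and -0.25 without C replicate 2. All 5 were higher in DM+SGLT2i than in DM-22 (50.6% of all genes were), with 2 at that threshold (2.25% of all genes).

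**Figure D3:**
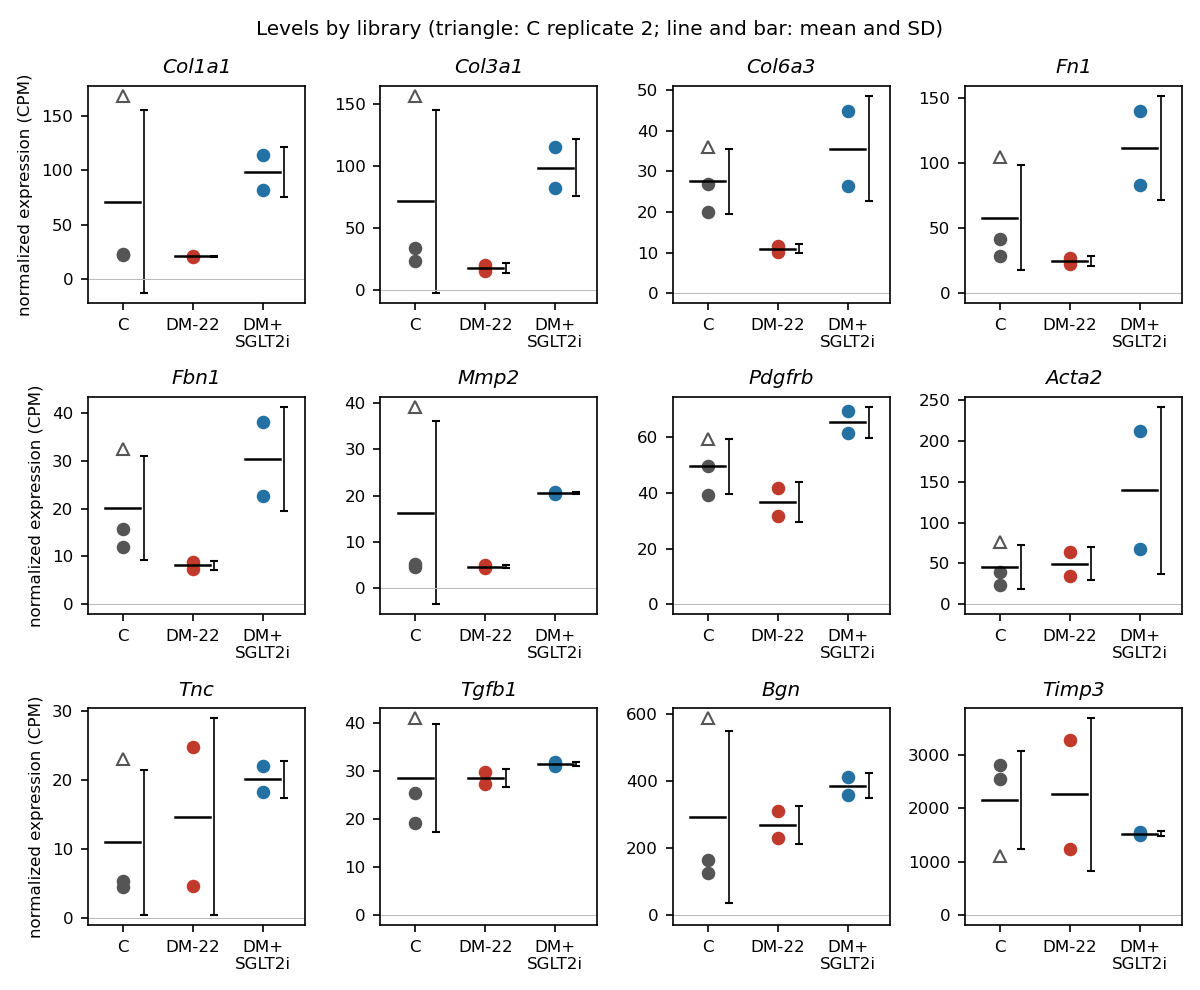
Levels of 12 members by library, 1 panel per gene, in CPM on linear axes. Circles are libraries (gray C, red DM-22, blue DM+SGLT2i), the open triangle is C replicate 2, horizontal lines are group means and vertical bars their SD (C n = 3, the other groups n = 2). For Col1a1, Col3a1, Col6a3, Fn1, Fbn1, Mmp2 and Pdgfrb both blue points lie above both red points; Tnc and Timp3 show the spread between the 2 DM-22 libraries.

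All 14 collagens were higher in DM+SGLT2i than in DM-22 (50.6% of all genes were). The bases just upstream of the start sites are shown for Col3a1, which had the largest log2 fold change between the diabetic groups, and for Col6a3 and Col5a1, which had small p-values in that comparison. They are set next to Tgfb1, the ligand that differed least among the 41. Each sequence is the 250 bases before the RefSeq start (GRCm38.p6), 5′ to 3′ on the gene's strand: Col3a1 at chr1:45311288-45311537 (plus), Col6a3 at chr1:90843972-90844221 (minus), Col5a1 at chr2:27886175-27886424 (plus) and Tgfb1 at chr7:25686752-25687001 (plus). Capitals mark CAGAC, the core of a SMAD binding element, GGGCGG, the core of a GC box, CCAAT, and TATAAA, on either strand.
Col3a1: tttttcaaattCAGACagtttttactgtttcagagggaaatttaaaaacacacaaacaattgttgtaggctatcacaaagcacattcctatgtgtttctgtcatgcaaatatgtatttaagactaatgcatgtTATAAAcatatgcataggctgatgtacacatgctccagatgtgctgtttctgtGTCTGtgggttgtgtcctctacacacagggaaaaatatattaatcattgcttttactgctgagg
Col6a3: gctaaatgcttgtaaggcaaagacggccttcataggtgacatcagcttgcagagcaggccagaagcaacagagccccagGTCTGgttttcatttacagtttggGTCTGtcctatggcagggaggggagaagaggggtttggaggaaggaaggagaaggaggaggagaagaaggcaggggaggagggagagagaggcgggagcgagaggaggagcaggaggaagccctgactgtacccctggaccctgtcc
Col5a1: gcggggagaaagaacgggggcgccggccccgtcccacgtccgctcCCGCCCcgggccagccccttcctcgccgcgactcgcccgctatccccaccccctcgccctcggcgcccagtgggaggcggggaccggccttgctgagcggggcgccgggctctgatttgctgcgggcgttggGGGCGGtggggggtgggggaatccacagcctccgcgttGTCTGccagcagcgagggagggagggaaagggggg
Tgfb1: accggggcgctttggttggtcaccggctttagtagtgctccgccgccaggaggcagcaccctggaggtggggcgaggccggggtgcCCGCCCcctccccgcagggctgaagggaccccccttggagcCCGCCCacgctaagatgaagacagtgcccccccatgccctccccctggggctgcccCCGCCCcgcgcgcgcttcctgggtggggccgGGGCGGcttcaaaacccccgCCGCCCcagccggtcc
Col3a1 holds CAGAC or its complement GTCTG at 239 and 64 bases and TATAAA at 117 bases before the start. Col6a3 holds GTCTG at 171 and 147 bases, and Col5a1 GTCTG at 35 bases and GGGCGG or CCGCCC at 205 and 73 bases. The Tgfb1 window holds 5 matches to GGGCGG or CCGCCC and no CAGAC. Sequences were kept only for windows free of exons. Fbn1 had a smaller p-value than Col5a1, but its window overlaps an exon and holds GGGCGG without CAGAC. The exon-free window of the collagen Col15a1 holds none of the marked motifs. The printed windows are therefore examples and no comparison of genes by motif. RefSeq windows were found for 26 of the 41 members (32 windows, since some genes have several starts). CAGAC was in 16 of the 32 (42.2% of all 32851 windows), GGGCGG in 19 (32.7% of all), CCAAT in 8 (33.8% of all) and TATAAA in 4 (12.4% of all). A match describes letters in this window and is not a binding site.

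Among the other collagens, Col6a3 had the smallest p-value of the 41 members between the diabetic groups. It encodes the large chain of the microfibrillar type VI collagen and stood at 10.2 and 11.7 CPM in DM-22, at 44.8 and 26.5 in DM+SGLT2i and at 35.9, 20.001 and 26.9 in C. Both DM-22 libraries lay below the 5 other libraries. Its log2 fold change was 1.61 ± 0.34 in DM+SGLT2i against DM-22 (SE; limma, unadjusted p = 0.00242, adjusted p = 0.881) and -1.26 ± 0.31 (unadjusted p = 0.00539, adjusted p = 0.804) between DM-22 and C, and the second value was -1.05 ± 0.28 (unadjusted p = 0.0101, adjusted p = 0.108) without C replicate 2. The partner chains Col6a1 and Col6a2 followed DM-22 less closely: Col6a1 stood at 19.5 and 20.6 CPM in DM-22 and at 17.4 and 25.9 in C replicates 8 and 9, and Col6a2 at 14.8 and 16.05 as compared to 11.9 and 16.1. The 3 chains together summed to 44.6 and 48.4 CPM in DM-22 and to 133 and 91.8 in DM+SGLT2i.

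Col14a1, a fibril-associated collagen, went from 30.2 and 48.4 CPM in DM-22 to 92.2 and 70.3 in DM+SGLT2i, above the 62.9, 47.1 and 64.9 CPM of the controls. Its log2 fold change between the diabetic groups was 1.07 ± 0.28 (SE; unadjusted p = 0.00769, adjusted p = 0.881). Col12a1, of the same class, stood at 54.4, 10.1 and 9.21 CPM in C, 10.9 and 7.12 in DM-22, and 38.7 and 28.2 in DM+SGLT2i. Its pattern over the libraries was that of Col1a1, with DM-22 near C replicates 8 and 9 and both DM+SGLT2i libraries above them. The short-chain collagen Col8a1 and the basement membrane-associated Col15a1 and Col16a1 had log2 fold changes of 1.59, 1.22 and 0.93 between the diabetic groups. Col18a1, the precursor of endostatin in vascular and tubular basement membranes, was the exception among the collagens in DM-22 versus C, with a positive log2 fold change. It stood at 270 and 281 CPM in DM-22, at 330.4 and 356 in DM+SGLT2i, and at 188 and 156 in C replicates 8 and 9. Against those 2 controls it was higher in DM-22 by a log2 fold change of 0.68 ± 0.15 (SE; unadjusted p = 0.00399, adjusted p = 0.0939), but C replicate 2 stood at 468 CPM and the value with all controls was 0.20 ± 0.45.

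Of the glycoproteins, Fn1 (fibronectin, which binds collagens and integrins; chr1:71585520-71653200, minus strand) stood at 27.3 and 22.2 CPM in DM-22 and at 139.9 and 83.1 in DM+SGLT2i, with 104, 28.3 and 41.6 in C. Its log2 fold change between the diabetic groups was 2.11 ± 0.58 (SE; unadjusted p = 0.00958, adjusted p = 0.881), and DM-22 lay below every control. Postn (periostin), a matricellular protein of remodelling tissue, was scarce and uneven. It stood at 1.75 and 0.439 CPM in DM-22, at 17.2 and 2.22 in DM+SGLT2i, and at 7.715, 0.926 and 1.39 in C, so that 1 DM+SGLT2i library carried most of its log2 fold change of 2.26 ± 1.13. Sparc, a collagen-binding protein, resembled Col18a1, with 177 and 206 CPM in DM-22, 259 and 273 in DM+SGLT2i, and 109 and 131 in C replicates 8 and 9. With C replicates 8 and 9 alone it was higher in DM-22 than in C by a log2 fold change of 0.68 ± 0.15 (limma, unadjusted p = 0.00469, adjusted p = 0.0951). With C replicate 2 included the value was 0.056 ± 0.56.

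Tnc (tenascin C) and Thbs1 (thrombospondin 1, an activator of latent TGF-beta) did not separate the diabetic groups. Tnc stood at 24.8 CPM in DM-22 replicate 1 and 4.56 in DM-22 replicate 2, at 18.2 and 22.003 in DM+SGLT2i, and at 23.1, 5.26 and 4.49 in C. The libraries with high Tnc were those with high inner medulla and urothelium markers, which summed to 400.5 and 9.46 CPM in DM-22, 211 and 156 in DM+SGLT2i, and 260, 53.3 and 56.3 in C. Their part in the Tnc values was not tested. The 8 members at least 2 times higher in DM-22 replicate 1 than in replicate 2 (7.68% of all genes) were Tnc, Lox, Postn, Vcan, Lum, Dcn, Thbs1 and Fbln1. With all libraries, none but Lum passed an unadjusted p of 0.05 (limma) between the diabetic groups. Without C replicate 2, 29 of the 41 members were higher at it (6.86% of all genes), among them all 5 elastic fibre genes and so Fbln1. The 8 genes were picked by a spread within DM-22 that also enters the SE of this test, so no conclusion is drawn from how few passed. Thbs1 stood at 137 and 61.8 CPM in DM-22, 110 and 144 in DM+SGLT2i, and 161, 56.5 and 117 in C, with overlapping groups.

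The elastic fibre genes comprise elastin (Eln), the microfibril protein fibrillin 1 (Fbn1), which also stores latent TGF-beta, and the fibulins that link both. Fbn1 stood at 8.82 and 7.4 CPM in DM-22, at 38.2 and 22.7 in DM+SGLT2i and at 32.6, 12.1 and 15.7 in C. DM-22 lay below all 5 other libraries, with log2 fold changes of 1.80 ± 0.47 (SE; unadjusted p = 0.00736, adjusted p = 0.881) in DM+SGLT2i versus DM-22 and -1.14 ± 0.43 (unadjusted p = 0.0352, adjusted p = 0.804) in DM-22 versus C. Eln went from 4.16 and 4.93 CPM in DM-22 to 9.80 and 8.04 in DM+SGLT2i, whereas C replicates 8 and 9 stood at 4.23 and 4.21. Fbln5 had the smallest spread of the class, at 107 and 131 CPM in DM-22, 179 and 184 in DM+SGLT2i and 187, 126 and 188 in C, and a log2 fold change of 0.61 ± 0.24 between the diabetic groups. For Fbln1 and Fbln2 the values were 1.07 ± 0.69 and 0.69 ± 0.47.

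The small leucine-rich proteoglycans Dcn (decorin), Lum (lumican) and Bgn (biglycan) regulate collagen fibril growth, and Vcan encodes the large proteoglycan versican. Bgn, the most abundant of them, stood at 309 and 229 CPM in DM-22, 359 and 412 in DM+SGLT2i, and 587, 125 and 165 in C. It was higher in DM-22 than in C replicates 8 and 9 by a log2 fold change of 0.88 ± 0.22 (SE; unadjusted p = 0.00689, adjusted p = 0.101), and all 3 members that differed in this direction at an unadjusted p under 0.05 (Bgn, Col18a1 and Sparc) are among the 4 members with the highest level per kilobase. Dcn overlapped between the diabetic groups, at 51.5 and 16.1 CPM in DM-22 and 67.3 and 39.9 in DM+SGLT2i. Lum stood at 1.48 and 0.301 CPM in DM-22 and at 6.13 and 2.69 in DM+SGLT2i, with a log2 fold change of 1.87 ± 0.65 (unadjusted p = 0.0256, adjusted p = 0.881). Vcan stayed under 3 CPM in every library.

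Lysyl oxidases cross-link collagen and elastin. Loxl1, which acts mainly on elastin, stood at 14.9 and 23.9 CPM in DM-22, 48.5 and 46.1 in DM+SGLT2i and 46.5, 18.6 and 26.5 in C, with a log2 fold change of 1.30 ± 0.42 (SE; unadjusted p = 0.0196, adjusted p = 0.881) between the diabetic groups. Loxl2 went from 12.9 and 20.6 CPM to 29.1 and 24.6. Lox followed Tnc instead, at 11.7 and 1.80 CPM in DM-22, 10.0 and 9.57 in DM+SGLT2i and 10.3, 2.48 and 2.29 in C, and the 2 DM-22 libraries spanned the whole range of the series.

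Mmp2 (gelatinase A; chr8:92827291-92853420, plus strand) was the protease with the clearest separation. It stood at 4.82 and 4.32 CPM in DM-22, at 20.7 and 20.3 in DM+SGLT2i, and at 39.2, 4.44 and 5.21 in C, so that DM-22 could not be told from C replicates 8 and 9 while both DM+SGLT2i libraries lay above them. The ratio of the group means was 4.48 against DM-22 and 4.25 against C replicates 8 and 9. With all libraries the log2 fold change between the diabetic groups was 2.05 ± 0.94 (SE; unadjusted p = 0.0673, adjusted p = 0.881). With C replicate 2 left out the SE of this value was 0.16 and the adjusted p (limma) was 0.147. In that fit Mmp2 rose in DM+SGLT2i against C replicates 8 and 9 by 1.98 ± 0.16 (adjusted p = 0.0451). Mmp14, the membrane-bound activator of pro-Mmp2, went from 11.2 and 7.93 CPM in DM-22 to 25.6 and 19.6 in DM+SGLT2i. Timp2, which inhibits Mmp2 and also takes part in its activation, stood at 89.4 and 49.6 CPM in DM-22 and 101 and 104 in DM+SGLT2i. The level of Mmp2 per kilobase of exon was 0.0624 and 0.101 times that of Timp2 in DM-22, 0.237 and 0.226 times in DM+SGLT2i, and 0.297, 0.0970 and 0.0857 times in C.

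Timp3, the matrix-bound inhibitor, was the only member lower in DM+SGLT2i than in DM-22 (log2 fold change -0.41 ± 0.61, SE; unadjusted p = 0.531, adjusted p = 0.914), and the value was 0.29 without DM-22 replicate 2. In that fit Tnc (-0.30), Lox (-0.25) and Thbs1 (-0.13) were lower instead. It stood at 1112, 2813 and 2545 CPM in C, 1246 and 3270.4 in DM-22, and 1490.2 and 1559 in DM+SGLT2i. The proximal tubule markers moved with it, at 10022, 21498 and 19250.1 CPM in C, 11335 and 19012 in DM-22, and 14329 and 14599.5 in DM+SGLT2i. Timp3 and these markers were high in the same 3 libraries and low in the other 4, and their part in its values was not tested. Timp3 shares 1733 exon bases with Syn3 on the other strand, which reached at most 9.51 CPM.

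The contractile genes Acta2 and Tagln (transgelin) were highest in DM+SGLT2i replicate 1. Acta2 stood at 63.8 and 35.1 CPM in DM-22, 212 and 67.2 in DM+SGLT2i, and 75.7, 23.1 and 39.1 in C, and Tagln at 47.3 and 28.4, at 138 and 68.4, and at 82.7, 21.7 and 59.2. Without DM+SGLT2i replicate 1 the log2 fold change between the diabetic groups was 0.50 for Acta2 and 0.89 for Tagln. Both were at least 2 times higher in DM+SGLT2i replicate 1 than in replicate 2, as were Postn and Lum (2.45% of all genes). The list of 18 vascular smooth muscle, pericyte and mesangial markers summed to 1225 CPM in that library and to between 500.3 and 663 in the other 6, and the fat markers to 1672 CPM. Their part in the Acta2 and Tagln values was not tested. Acta2 belongs to a family of closely similar actin genes, so that reads could be split among them.

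The platelet-derived growth factor receptors of fibroblasts and pericytes had smaller but more even differences. Pdgfrb stood at 31.7 and 41.8 CPM in DM-22, 69.3 and 61.5 in DM+SGLT2i, and 59.4, 39.4 and 49.9 in C, with a log2 fold change of 0.83 ± 0.23 (SE; unadjusted p = 0.0101, adjusted p = 0.881) between the diabetic groups. Pdgfra stood at 27.0 and 14.2 CPM in DM-22, 47.8 and 38.9 in DM+SGLT2i, and 41.5, 27.5 and 38.0 in C, and its log2 fold changes were 1.11 ± 0.33 (unadjusted p = 0.0137, adjusted p = 0.881) between the diabetic groups and -0.82 ± 0.31 (unadjusted p = 0.0324, adjusted p = 0.804) in DM-22 versus C. Of 17 other fibroblast markers tested, 13 were higher in DM+SGLT2i than in DM-22 (50.6% of all genes were), with a median log2 fold change of 0.44. With all libraries 0 were at an unadjusted p under 0.05 (2.25% of all genes higher, 1.66% lower). Without C replicate 2 it was 5 (6.86% of all genes higher, 3.89% lower).

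The TGF-beta ligand and receptor were among the members that differed least. Tgfb1 stood at 29.8 and 27.3 CPM in DM-22, 31.1 and 31.8 in DM+SGLT2i, and 41.05, 19.2 and 25.5 in C, with a log2 fold change of 0.14 (95% interval -0.65 to 0.92) between the diabetic groups. Tgfbr2 stood at 96.4 and 110 CPM in DM-22, 142 and 125 in DM+SGLT2i and 141, 121 and 116 in C, with a log2 fold change of 0.37 ± 0.17. Of 31 other TGF-beta pathway genes tested, 20 were higher and 11 lower in DM+SGLT2i than in DM-22 (50.6% of all genes were higher), with a median of 0.19. At an unadjusted p under 0.05 was 1 (2.25% of all genes higher, 1.66% lower). It was the latent TGF-beta binding protein gene Ltbp2 (2.49; limma, unadjusted p = 0.0282, adjusted p = 0.881). The growth factors for fibroblasts, PDGF ligands among them, held 0 of 10 at that threshold, a list too short to read against these shares.

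Per kilobase of exon and averaged over the 7 libraries, Timp3 was the highest of the 41 members (246 CPM per kb), followed by Sparc (59.9), Bgn (51.3), Col18a1 (41.7), Acta2 (33.6) and Tagln (32.0). Timp3 ranged from 137 to 402 CPM per kb over the libraries and did not overlap with Sparc (28.8 to 115), whereas the ranges of Sparc, Bgn, Col18a1 and Acta2 overlapped. Col1a1 (9.85), Col1a2 (8.18) and Col3a1 (6.49) lay in the middle, and Postn (0.520) and Vcan (0.0890) at the bottom. The level of Col1a1 per kilobase relative to Col1a2 was 1.496 and 1.28 in DM+SGLT2i, 0.588 and 0.946 in DM-22, and 1.49, 0.858 and 0.617 in C. The mRNAs of these 2 chains, which assemble in a fixed ratio in the protein, were thus not in a fixed ratio between libraries.

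Other gene lists of the same biology were read beside the members in DM+SGLT2i versus DM-22. In that comparison 50.6% of all genes were higher, and at an unadjusted p under 0.05 2.25% were higher and 1.66% lower. Of 34 other interstitial matrix genes tested, 29 were higher, with a median log2 fold change of 0.73 and 6 higher and 1 lower at an unadjusted p under 0.05, led by the basement membrane gene Nid1 (1.05, unadjusted p = 0.0108, adjusted p = 0.881). Omd (osteomodulin) was the lower one (-1.07, unadjusted p = 0.0282, adjusted p = 0.881). Of 20 other matrix-degrading enzymes and inhibitors, 18 were higher, with a median of 0.58 and Mmp19 at 1.42 (unadjusted p = 0.0199, adjusted p = 0.881). The machinery that modifies and secretes collagen did not share this direction: 12 of 25 were higher, the median was -0.02, and the lysyl hydroxylase Plod2 was lower by -0.72 (unadjusted p = 0.0267, adjusted p = 0.881). Of 17 vascular smooth muscle, pericyte and mesangial markers, 16 were higher, with Synpo2 at 1.46 (unadjusted p = 0.00200, adjusted p = 0.881).

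Markers of several other compartments had positive log2 fold changes in DM+SGLT2i versus DM-22 (50.6% of all genes did): 11 of 11 macrophage and leukocyte markers (median 0.42), 8 of 8 tubular injury markers (0.67), 9 of 9 inner medulla and urothelium markers (1.53), 6 of 6 fat markers (3.68) and 8 of 8 podocyte markers (0.37). With all libraries, 0 of each were at an unadjusted p under 0.05 (2.25% of all genes were higher at it). Without C replicate 2, 6 macrophage and leukocyte, 4 tubular injury and 1 inner medulla and urothelium markers were higher at that threshold and 0 of the fat and podocyte markers, beside 29 of the 41 members and 6.86% of all genes. The summed level of the inner medulla and urothelium markers was 400.5 and 9.46 CPM in DM-22 and 211 and 156 in DM+SGLT2i. The sums of DM+SGLT2i thus lay between those of DM-22. Without DM+SGLT2i replicate 1 the median of the 9 markers was -0.35, so that its direction rested on that library. The sum hides different patterns: Slc14a2 and Aqp4 were highest in DM-22 replicate 1, and all other markers of the list in DM+SGLT2i replicate 1. Slc14a2 stood at 267 and 2.84 CPM in DM-22, at 14.8 and 88.5 in DM+SGLT2i, and at 84.9, 23.7 and 25.6 in C. Upk1a stood at 10.3 and 0.879 CPM in DM-22, at 37.75 and 2.31 in DM+SGLT2i, and at 20.65, 2.04 and 1.73 in C. The fat markers summed to 82.3 and 44.5 CPM in DM-22 and 1672 and 65.0 in DM+SGLT2i, and their median was 0.59 without DM+SGLT2i replicate 1. The podocyte median was -0.34 without DM-22 replicate 1. For endothelium 5 of 12 and for collecting duct 2 of 7 were higher. The thick ascending limb markers summed to 15099 and 4899 CPM in DM-22, 6154 and 8860 in DM+SGLT2i, and 6877, 5659 and 4788 in C, so that the 2 DM-22 libraries differed widely. Macrophage and leukocyte markers summed to 621, 168 and 171 CPM in C, 329 and 188 in DM-22, and 328 and 370 in DM+SGLT2i. No marker of these lists was at 0 in any library except 1 of the fat markers. Their part in the members' values was not tested.

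**Figure D4:**
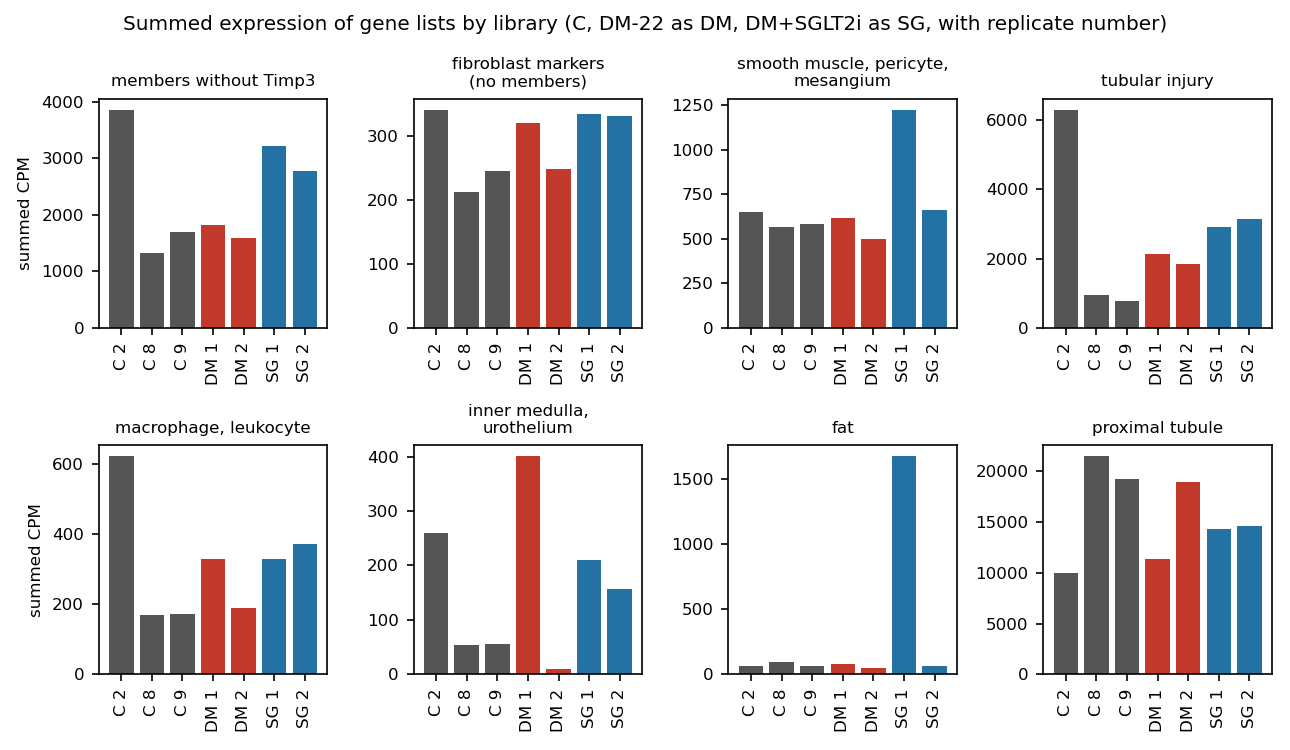
Summed CPM of the members without Timp3 and of 7 marker lists in each library, on linear axes starting at 0. Bars are single libraries (gray C, red DM-22 shown as DM, blue DM+SGLT2i shown as SG, with the replicate number). The members' sum is highest in C replicate 2 (3857 CPM) and in both DM+SGLT2i libraries (3222 and 2775), the injury sum follows C replicate 2 above all (6299.8), and the fat sum stands out in DM+SGLT2i replicate 1 (1672).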

How the data were processed

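RNA was extracted from renal tissue, enriched for polyA RNA and made into strand-marking libraries. The submitters' processing notes name bcl2fastq, FastQC, Trim Galore, STAR, edgeR and the build mm10; how reads were counted, and whether strand was used, is not given in the sources used here. For 17537 genes the authors deposited log2 values, that is TMM-normalized CPM with a small constant added. The design assumed linear CPM, so CPM were regained by undoing the logarithm and subtracting the constant that all libraries share (-4.66 on the log2 scale), which gave whole reads for 100% of values (tolerance 0.01). TMM factors lay between 0.891 and 1.08. The lowest total of a gene was 10 reads, so genes with fewer had been removed. All 7 columns were used (0 left out).

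The 13976 genes reaching 1 CPM in 2 or more libraries entered limma (version 3.58.1, R 4.3.3; lmFit, eBayes with trend) on log2(CPM + 0.5), the 3 groups fitted together; this scale understates changes of low genes. Two-sided p-values were adjusted over all genes tested by the Benjamini-Hochberg method (threshold 0.05). Counts of members at an unadjusted p under 0.05 are to be read against the share of all genes at that threshold in the same fit. The p-values come from 2 or 3 libraries a group. The fit was also run on simulated reads with known changes. These were drawn with a common spread and without a deviating library. That run therefore cannot show how the fit handles a library such as C replicate 2. Alternatives covered normalization, filter, pseudocount, spread model, limma voom on the recovered reads, the replicate block and leaving out libraries. A count model was not used on the deposited values, which are logarithms.

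The members, the gene lists and the naming rule were chosen with earlier results of these data known. Full statistics are given for up to 5 members with the smallest p in each direction of a comparison, with values by library for the leading genes of each role. Coordinates and exon lengths are from GENCODE M21 (GRCm38), which matched all 17537 identifiers. Promoter sequences are from RefSeq (GRCm38.p6). Exons of Col15a1, Col5a1, Loxl2, Tagln and Timp3 overlap another listed gene on the other strand, whose reads cannot be told apart without strand; the largest such neighbours were Pcsk7 beside Tagln (108 bases, at most 65.1 CPM) and Gm27177 beside Loxl2 (301 bases, at most 14.8 CPM).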

Additional observations from a re-analysis of the deposited data

How the results depend on the processing

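The direction of the members' median held in DM+SGLT2i versus DM-22 (0.87 to 1.35 when 1 library was left out), in DM+SGLT2i versus C (0.30 to 1.0002) and in DM-22 versus C (-0.77 to -0.12), but not when all 4 diabetic libraries were compared with C (-0.31 to 0.48, 0.0025 with all libraries). The number at an unadjusted p under 0.05 did not hold its size. Shares in parentheses are of all genes in the same fit, in either direction. With 1 library left out it lay between 1 (0.386%) and 29 (10.8%) in DM+SGLT2i versus DM-22, between 0 and 28 (17.9%) in DM+SGLT2i versus C, between 3 (5.55%) and 12 (2.20%) in DM-22 versus C and between 0 and 13 (24.8%) in all diabetic versus C. At the adjusted threshold it lay between 0 and 2 in DM+SGLT2i versus C and at 0 in the other comparisons.

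In DM+SGLT2i versus DM-22, fitting only these groups gave 25 members (5.03%) and limma voom 15 (3.81%). Replicate numbers 1 and 2 recur in both diabetic groups, and the labels do not say whether the numbers pair libraries. Same-numbered libraries did not deviate together (correlation -0.041), but with 2 libraries a group this single value cannot decide the question. With the number as a replicate block 28 members (4.98%) were at an unadjusted p under 0.05. Library totals without TMM gave 9 lower members (5.18%) in DM-22 versus C, and no filter or median centring 1 (1.25% and 1.09%) in DM+SGLT2i versus C.

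Leaving out pairs of libraries was chosen after seeing the data. Without C replicate 2 and DM+SGLT2i replicate 1, the numbers at an unadjusted p under 0.05 were 18 (2.88%) in DM+SGLT2i versus DM-22, 14 (14.9%) in DM+SGLT2i versus C, 6 (25.1%) in DM-22 versus C and 9 (25.2%) in all diabetic versus C. Without C replicate 2 and DM-22 replicate 1, they were 33 (24.1%), 34 (30.3%), 9 (28.9%) and 18 (31.7%) in DM+SGLT2i versus DM-22, DM+SGLT2i versus C, DM-22 versus C and all diabetic versus C, and 15, 23, 1 and 9 passed the adjusted threshold. The members' shares in DM-22 versus C were below those of all genes in both of these fits. In the last fit 437 of all genes (3.13%), 1660 (11.9%), 637 (4.56%) and 1608 (11.5%) passed, with a lone DM-22 library assumed to vary like the others.

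Over the 41 members, the fitted sign turned in at least 1 alternative for 4 members in DM+SGLT2i versus DM-22, 9 in DM+SGLT2i versus C, 20 in DM-22 versus C (11 of them without C replicate 2, such as Col6a2 from -0.60 to 0.15 and Fbln1 from -0.22 to 0.40) and 30 in all diabetic versus C. Past the adjusted threshold were Mmp2 and Col6a2, in all diabetic versus C without C replicate 2 and DM-22 replicate 1. How many of all genes turned sign was not counted, so these numbers cannot be read as a trait of the members. Among members named by the rule on p-values the values were these. In DM-22 versus C, leaving out 1 library gave -0.22 to 0.65 for Acta2, -0.23 to 0.88 for Bgn, -0.11 to 0.68 for Col18a1, -0.96 to 1.45 for Lox, -0.32 to 0.68 for Sparc, -0.18 to 0.36 for Tgfb1 and -0.80 to 1.53 for Tnc. Without C replicate 2 and DM-22 replicate 1, Lox was at -0.32 and Tnc at -0.085, and with library totals Sparc was at -0.0333 and Tgfb1 at -0.020. In DM+SGLT2i versus DM-22, where Tnc, Lox and Thbs1 turned too, Timp3 ranged from -1.10 to 0.29. In all diabetic versus C, leaving out 1 library gave -0.46 to 0.98 for Col1a1, -0.55 to 0.96 for Mmp2, -0.081 to 0.92 for Sparc and -0.61 to 0.16 for Timp3. Mmp2 was at 0.0095 with median centring, 0.95 without C replicate 2 and DM+SGLT2i replicate 1 and 0.92 (adjusted p = 0.0187) without C replicate 2 and DM-22 replicate 1, Fbln5 at 0.0016 in that last fit and Col1a1 at -0.00805 with library totals. The causes were not tested.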

Other observations

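Among the controls, C replicate 2 was above C replicates 8 and 9 for 38 of 41 members (44.2% of all genes) and at least 2 times their mean for 29 (10.7% of all genes). The largest ratios were 8.13 for Mmp2, 7.36 for Col1a1, 6.66 for Postn, 5.63 for Col12a1 and 5.44 for Col3a1. For Col14a1, Fbln5 and Tgfbr2 the ratios were 1.12, 1.19 and 1.19.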
